A study of Mus musculus with 2 samples.

Results

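The genes described here are transcription factors and cofactors of the sensory lineage of the dorsal root ganglion (DRG), chosen by symbol as 9 of the 33207 genes counted. Not all of them were found in most neurons here. They are *Pou4f1*, *Pou4f2* and *Pou4f3* (POU homeobox), *Isl1* and *Isl2* (LIM homeobox), *Tlx3* and *Drgx* (other homeobox families), *Eya2* (a transcriptional cofactor) and *Prdm12* (a zinc-finger factor of the PRDM family). *Drgx* was found by its gene identifier, as the row carries the older symbol *Prrxl1*. Of these genes, 8 had a UMI (unique molecular identifier, 1 captured transcript) in the kept cells at E11.5 and all 9 in the E12.5 library, and 7 had at least 50 UMIs in the lineage cells of each stage.

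The study followed boundary cap cells, neural crest-derived cells at the points where spinal nerve roots meet the cord. The 2 libraries used here came from mouse embryos carrying Egr2-Cre and a Rosa26 Tomato reporter (*Egr2Cre/+*; *R26-Tomato*), 1 library at E11.5 and 1 at E12.5 (E: embryonic day), and no control library was used here. Meninges with the DRGs and the nerve roots were dissected and dissociated, and Tomato-positive cells were sorted and run on a 10x droplet kit. The reporter is switched on by Cre from *Egr2*, a gene of boundary cap cells, and stays on in their descendants, so the sort holds a lineage and not a cell type. Stage, litter and library cannot be told apart, cells are not replicates, and no test was made. Values are given per library with 95% exact intervals (Poisson for summed UMIs, Clopper-Pearson for shares of cells), which cover counting error only.

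Sensory neurogenesis in the DRG starts from *Sox10*-positive neural crest progenitors, in which the proneural factors Neurog1 and Neurog2 switch on the neuronal programme. Brn3a, the product of *Pou4f1*, and Islet1 are then found in nearly all sensory neurons, where they act together to close the neurogenic phase and to allow subtype factors to appear. Prdm12 is required for the nociceptor lineage, and Tlx3 and Drgx are known for their part in the differentiation and wiring of nociceptive circuits. Eya proteins are transcriptional cofactors of sensory and placodal progenitors.

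The deposited tables held 1431 barcodes at E11.5 and 3762 in the E12.5 library, with 10287595 and 23460243 UMIs. Filters on mitochondrial share, UMIs and doublet score left 833 and 3496 cells, with a median of 11601 and 6140 UMIs. Of these, 765 and 3197 were placed in the glia-to-neuron lineage. Another 62 and 242 cells had the markers of other cell types (52 pericyte at E11.5, 174 mesenchymal, 36 myeloid and 25 pericyte at E12.5). They served as the background, in which free RNA and the cells' own transcripts were not told apart. A further 6 and 57 cells could not be placed. The libraries shared 9 barcodes. The labels name the sorted cells boundary cap cells of the meninges. *Egr2* and *Prss56*, the genes that mark boundary cap cells, were found in 24.2% and 26.1% of the progenitor-range cells (defined below) at E11.5 and in 15.0% and 29.8% in the E12.5 library, but in at most 2.10% of the neuron-range cells. The genes that define the labelled type were thus found in part of the progenitor range and nearly absent from neurons.

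Cells were ordered by an index from 0 (glial) to 1 (neuronal). It weighs 10 neuronal genes such as *Tubb3*, *Stmn2* and *Elavl3* against 10 glial genes such as *Erbb3* and *Foxd3*, and uses neither the 9 genes nor the landmarks *Sox10* and *Neurog1*. Cells under 0.2 are called the progenitor range, cells from 0.2 to 0.5 early transition, from 0.5 to 0.8 late transition, and cells from 0.8 the neuron range. Neuron-range cells were split into nascent, middle and later by a second index of 10 nascent genes (such as *Neurod4* and *Hes6*) and 8 later genes (such as *Nefl* and *Snap25*). In that order the 6 steps held 501, 41, 28, 156, 28 and 11 cells at E11.5 and 1697, 101, 116, 774, 332 and 177 in the E12.5 library, so that values of the later step at E11.5 rest on 11 cells. *Sox10* fell along the steps from 313 CPM (UMIs of the gene per 1000000 UMIs of the step's cells) to 0 in later neurons at E11.5, and from 311 to 4.67 in the E12.5 library. *Neurog1* was highest at 329 CPM in late transition at E11.5 and at 218 CPM in early transition in the E12.5 library.

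Promoters are shown for 4 genes. *Prdm12* had the highest progenitor level relative to its own neuron level, and *Pou4f1*, *Isl1* and *Tlx3* rose by more into the transition, as described below. Each line gives the 250 bases before the annotated start, from RefSeq on the build GRCm38.p6. There 7 of the 9 genes had an entry, and *Eya2* had none. Capitals mark E-boxes (CANNTG, the motif of proneural bHLH factors).
*Prdm12* (chr2:31639787-31640036, plus strand): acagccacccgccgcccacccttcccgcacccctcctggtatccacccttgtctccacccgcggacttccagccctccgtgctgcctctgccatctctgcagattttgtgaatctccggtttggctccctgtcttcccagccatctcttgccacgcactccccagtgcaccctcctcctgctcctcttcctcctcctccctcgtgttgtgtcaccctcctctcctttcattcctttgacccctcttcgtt
*Pou4f1* (chr14:104468000-104468249, minus strand): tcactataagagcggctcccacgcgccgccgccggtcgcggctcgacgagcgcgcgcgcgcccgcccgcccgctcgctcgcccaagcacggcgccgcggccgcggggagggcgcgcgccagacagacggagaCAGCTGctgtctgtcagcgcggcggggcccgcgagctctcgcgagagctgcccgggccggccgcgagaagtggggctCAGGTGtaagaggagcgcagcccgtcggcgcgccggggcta
*Isl1* (chr13:116309689-116309938, minus strand): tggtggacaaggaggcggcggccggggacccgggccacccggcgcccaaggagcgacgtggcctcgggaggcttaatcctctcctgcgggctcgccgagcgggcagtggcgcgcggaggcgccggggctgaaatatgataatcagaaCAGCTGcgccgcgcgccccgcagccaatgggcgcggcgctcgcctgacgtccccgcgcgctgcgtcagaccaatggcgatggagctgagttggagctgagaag
*Tlx3* (chr11:33203589-33203838, minus strand): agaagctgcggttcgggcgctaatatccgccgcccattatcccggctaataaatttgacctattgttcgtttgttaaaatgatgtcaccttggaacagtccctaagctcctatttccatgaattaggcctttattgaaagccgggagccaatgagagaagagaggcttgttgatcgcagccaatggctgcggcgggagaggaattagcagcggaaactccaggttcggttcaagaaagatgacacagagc
On both strands, E-boxes were found 2 times before *Pou4f1*, at 118 and 41 bases upstream, and 1 time before *Isl1*, at 103 bases upstream. The farther one before *Pou4f1* and the one before *Isl1* read CAGCTG, a form counted among the E-boxes. None lay before *Prdm12*, *Tlx3*, *Pou4f2*, *Isl2* or *Drgx*, while 66.2% of the 32851 promoters of this length held an E-box and 13.0% held CAGCTG. Neither CATCTG (14.4% of all promoters) nor the homeobox core TAATTA (4.84%) was found before any of the 7 genes. A match describes the letters of the window, not a bound site.

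*Eya2* was the earliest to be widely detected. *Eya2* (chromosome 2, 165436895 to 165613647 on GRCm39, plus strand) stood at 51.9 CPM (46.2–58.1) in the progenitor range at E11.5, 283 in early transition, 499 in late transition, 442 in nascent, 151 in middle and 55.6 (25.4–105) in later neurons. At E12.5 the same steps had 73.9 (68.9–79.3), 486, 535, 460, 219 and 110 CPM (93.8–128). In both libraries it therefore rose and fell, with its highest step in late transition. The later level overlapped that of the progenitors at E11.5 and stayed above it at E12.5. The progenitor level was 9.61 times (3.26–46.9) that of the cells outside the lineage at E11.5 and 4.15 times (2.85–6.29) in the E12.5 library. Whether the *Eya2* UMIs of the outside cells were free RNA or their own was not tested.

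*Prdm12* (chromosome 2, 31529730 to 31545807, plus strand) had the lowest highest-step level of the 7 well-counted genes in both libraries. It stood at 18.6 CPM (15.3–22.5) in the progenitor range at E11.5, 38.5 (23.1–60.0) and 40.4 in early and late transition, 40.9 (32.1–51.5) in nascent, 23.9 (10.9–45.4) in middle and 6.17 in later neurons, the last from 1 UMI. At E12.5 it had 15.6 CPM (13.3–18.2), 37.6 (24.1–56.0), 46.3, 51.5, 67.1 (57.4–77.9) and 49.3 (38.7–61.9). Its progenitor level was thus 52.0% (38.7–70.1) of its neuron-range level at E11.5 and 28.0% (23.3–33.5) in the E12.5 library, the highest such share among the 7 genes. *Eya2* followed with 14.1% and 22.5%, and the others lay at or below 3.67%. Cells outside the lineage held 1 *Prdm12* UMI (1.80 CPM) at E11.5 and 0 in the E12.5 library, which allows up to 1.90 CPM. An unnamed gene model on the other strand, *Gm13425*, overlaps *Prdm12* and had 139 UMIs of its own over both libraries.

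*Pou4f1* (chromosome 14, 104699112 to 104705504, minus strand), the Brn3a gene, reached its neuron level within the transition. At E11.5 it went from 26.7 CPM (22.7–31.3) in the progenitor range to 297 (251–350) in early and 718 (631–813) in late transition, then 768 in nascent, 645 in middle and 469 (370–587) in later neurons. At E12.5 it went from 22.3 CPM (19.6–25.4) to 339, 711 (651–774), 825 (799–851), 657 and 540 (503–578). Late transition already held 98.7% of the neuron-range level at E11.5 and 97.9% in the E12.5 library, and the level came down from nascent to later neurons in both.

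*Tlx3* and *Isl1* came up together but not at the same pace. *Tlx3* (chromosome 11, 33150750 to 33153611, minus strand) had 6.20 CPM (4.34–8.59) in the progenitor range at E11.5, 52.6 (34.4–77.1) in early and 435 (369–511) in late transition, and 594, 733 and 593 in nascent, middle and later neurons. At E12.5 it had 14.4 CPM (12.2–16.9), 146 (118–179), 306 (268–349), 570, 559 and 514. Its progenitor level was 1.15 times (0.363–5.83) the level outside the lineage at E11.5 and 1.74 times (0.989–3.35) in the E12.5 library, which was not separable from background. *Isl1* (chromosome 13, 116434817 to 116446235, minus strand) rose from 14.3 CPM (11.4–17.7) at E11.5 to 148 (116–186), 574 (497–659), 1241, 1811 and 1339.6, and from 23.5 CPM (20.6–26.6) at E12.5 to 265 (227–308), 534, 1119, 1479 and 1214. It was highest in middle neurons in both libraries.

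*Drgx* (identifier ENSMUSG00000041730, chromosome 14, 32321364 to 32371203, plus strand) belonged to the neuron range. At E11.5 it had 1.03 CPM in the progenitor range, 0 UMIs in early transition (up to 6.07 CPM), 17.3 CPM (6.35–37.6) in late transition, 187 (167–208) in nascent, 303 in middle and 327 (245–428) in later neurons. At E12.5 the levels were 3.74 (2.67–5.09), 9.41 (3.45–20.5), 29.9 (18.8–45.3), 217 (203–230), 297 and 301 CPM (273–330). The step from late transition to nascent neurons was the steepest part of its course.

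*Isl2* (chromosome 9, 55445956 to 55453464, plus strand) came last. It was at 0 UMIs in the progenitor range and in late transition at E11.5, with 1 UMI in early transition, 2.80 CPM (0.910–6.54) in nascent, 159 (122–205) in middle and 235 (166–322) in later neurons. At E12.5 it had 1.22, 4.71 and 1.36 CPM in the first 3 steps, then 12.6 (9.54–16.2), 95.3 (83.7–108) and 243 (218–269). The later level was 83.7 times (32.9–272) the nascent level at E11.5 and 19.3 times (14.6–25.9) in the E12.5 library. The gene model *Gm17226* on the other strand had 11 UMIs.

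The remaining POU genes were rare. *Pou4f3* had 7 UMIs in the lineage at E11.5, of which 2 in the progenitor range, 1 in nascent and 4 in later neurons, the 4 in 1 cell. At E12.5 it had 28, of which 21 in later neurons, at 14.0 CPM (8.66–21.4) in 16 cells. *Pou4f2* had 0 UMIs at E11.5 and 5 in the E12.5 library, each in a different later neuron (3.33 CPM, 1.08–7.78). Both genes were thus found mainly in the most mature cells, at counts too low for a course.

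**Figure D1:**
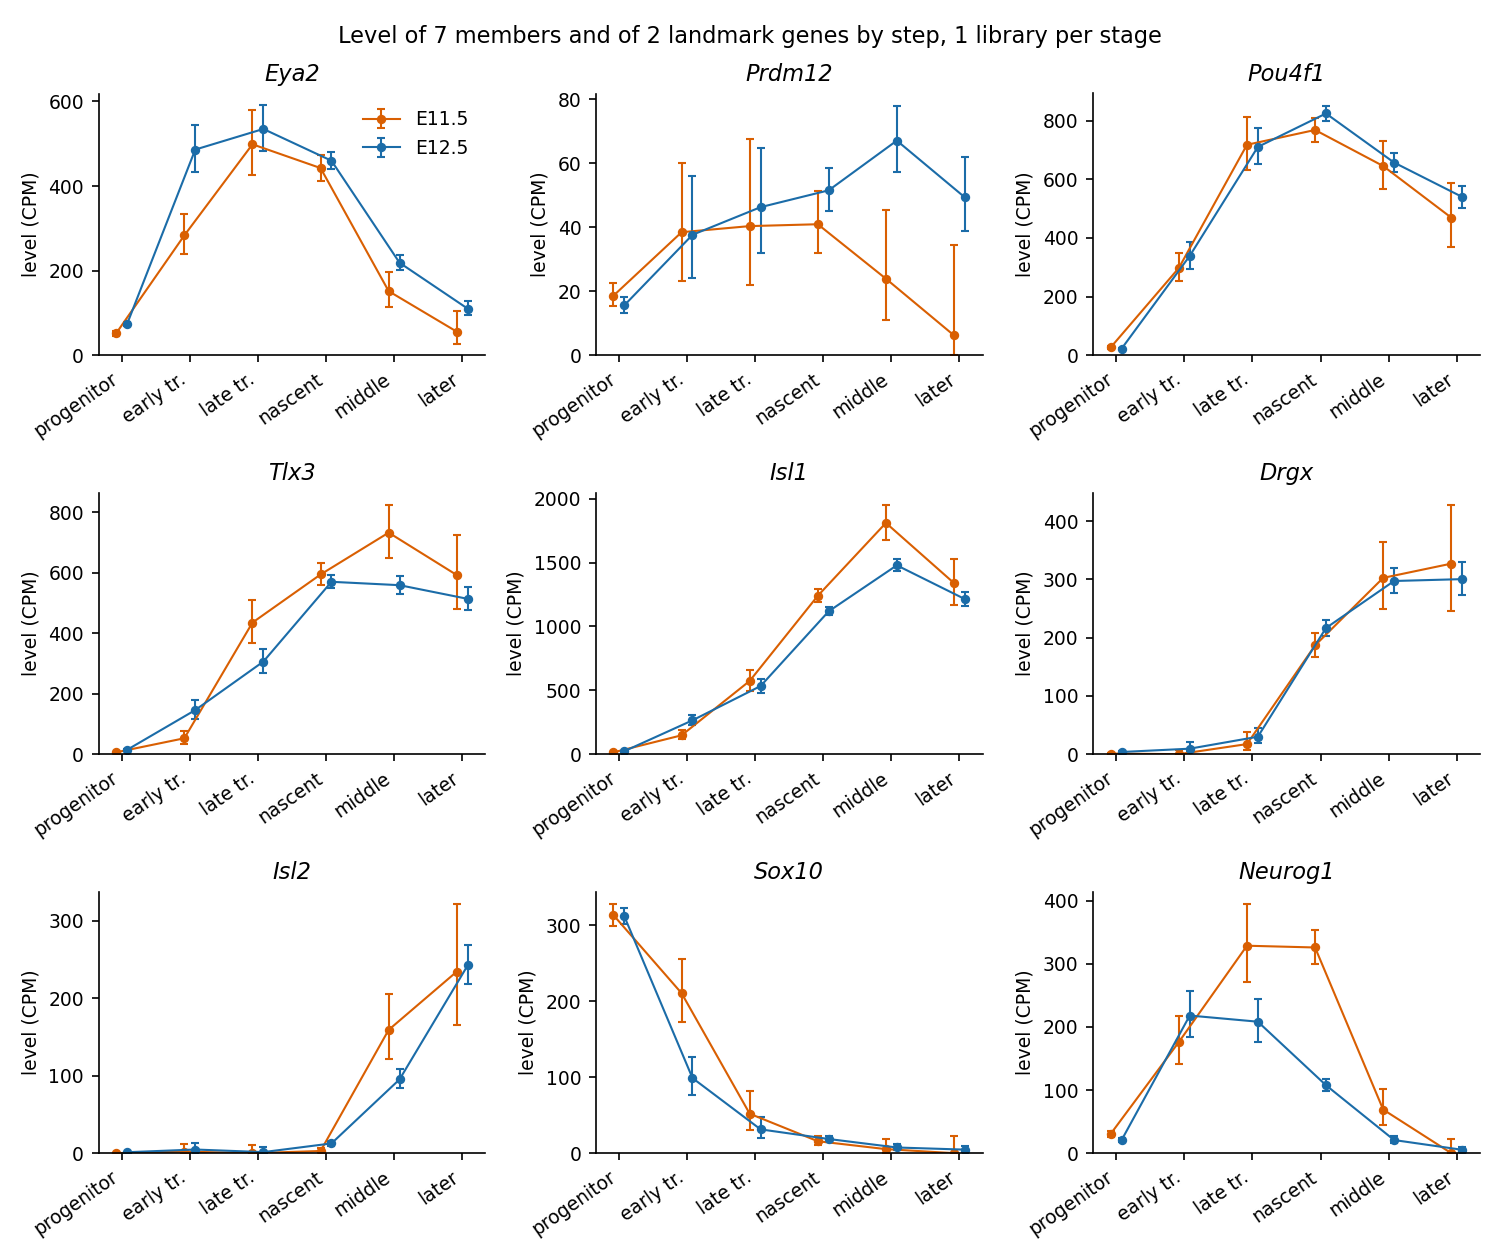
Level (CPM, linear axis) of 7 of the genes and of *Sox10* and *Neurog1* in each of the 6 steps (tr.: transition), with 95% Poisson intervals, orange for E11.5 and blue for E12.5. *Eya2* peaks at 499 and 535 CPM in late transition. *Drgx* rises most from late transition to nascent neurons, where it has 187 and 217 CPM, and *Isl2* reaches 235 and 243 CPM in later neurons.

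The order of onset was read from the level in both transition steps together, as a percent of the level over the whole neuron range. At E11.5 it was 110% (71.0–166) for *Prdm12* and 101% (88.5–115) for *Eya2*, 64.7% (57.9–72.2) for *Pou4f1*, 34.1% (29.0–39.9) for *Tlx3*, 24.1% (21.2–27.3) for *Isl1*, 3.31% (1.21–7.26) for *Drgx* and 2.68% (0.0672–15.3) for *Isl2*. At E12.5 it was 156% (143–170) for *Eya2*, 75.8% (56.7–99.7) for *Prdm12*, 74.1% (68.5–80.0) for *Pou4f1*, 41.6% (37.0–46.6) for *Tlx3*, 32.9% (30.2–35.9) for *Isl1*, 8.01% (5.31–11.6) for *Drgx* and 3.80% (1.03–9.77) for *Isl2*. Counting error separated *Pou4f1*, *Tlx3*, *Isl1* and *Drgx* from each other in both libraries, but *Tlx3* and *Isl1* overlapped in both when other index cuts or every second axis gene were used. It did not separate *Prdm12* from *Eya2* at E11.5, nor *Prdm12* from *Pou4f1* or *Drgx* from *Isl2* in either library. For *Eya2* the percent also reflects the fall of the gene in older neurons.

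The first step to reach 50% of a gene's highest step gave a like order. It was early transition for *Eya2* and *Prdm12*, late transition for *Pou4f1* and *Tlx3*, and the nascent step for *Isl1* and *Drgx*, each in both libraries. For *Isl2* it was the middle step at E11.5 and the later step in the E12.5 library. Early transition alone set *Pou4f1* apart, with 40.9% and 46.7% of its neuron level at E11.5 and E12.5. *Isl1* had 11.02% and 21.4% there and *Tlx3* 8.53% and 26.2%. The pair *Tlx3* and *Isl1* differed most in late transition, with 70.6% against 42.8% at E11.5 and 55.0% against 43.0% in the E12.5 library. *Isl1* was not late to be detected, however, as the shares of cells below show.

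Among all genes with at least 50 UMIs in the compared cells, a 2-fold rise from the progenitor range to transition was uncommon, at 3.70% of 9178 genes at E11.5 and 4.85% of 11035 in the E12.5 library. All 5 of the genes that reached 50 UMIs at E11.5 rose so (*Eya2*, *Prdm12*, *Pou4f1*, *Isl1* and *Tlx3*), and so did all 6 at E12.5, where *Drgx* joined them. None was lower by 2-fold, against 12.9% and 18.6% of all genes. *Tlx3* gave the widest rise at E11.5, 33.9 times (23.6–50.01), and *Pou4f1* at E12.5, 24.1 times (20.8–28.0). *Prdm12* gave the smallest in both, 2.11 times (1.38–3.14) and 2.71 times (1.97–3.67). The E11.5 progenitor levels of *Tlx3* and *Isl1* were not separable from background, at 1.15 times (0.363–5.83) and 1.99 times (0.748–7.47) the level outside the lineage. The size of their rises at E11.5, and the rank of *Tlx3*, are therefore uncertain. At E12.5 the progenitor level was 1.74 times (0.989–3.35) that outside for *Tlx3* and 1.76 times (1.13–2.89) for *Isl1*. For *Pou4f1* it was 4.39 times (2.19–10.3), so the first rank of *Pou4f1* at E12.5 is uncertain too. The median of the genes on the log2 scale was 4.14 at E11.5 and 3.40 in the E12.5 library, beside −0.15 and −0.22 for all genes compared.

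From transition to the neuron range, 4 of 7 genes rose 2-fold in each library (*Tlx3*, *Isl1*, *Drgx* and *Isl2*), against 11.54% of 6750 genes at E11.5 and 15.0% of 10139 in the E12.5 library. None of the 7 was lower by 2-fold, where 6.81% and 8.38% of all genes were. *Drgx* was 30.2 times (13.8–82.7) higher in neurons at E11.5 and 12.5 times (8.62–18.8) in the E12.5 library, and *Isl1* 4.14 and 3.04 times. *Eya2* went the other way at E12.5, at 0.641 times (0.590–0.697) its transition level. Between nascent and later neurons the genes went different ways. Of 6 compared at E11.5, 0 were higher and 2 lower by 2-fold (*Eya2* at 0.126 times and *Prdm12* at 0.151 times). Of all 5060 genes compared there, 8.62% were higher and 12.6% lower. The *Prdm12* ratio (0.00377–0.867) rests on 1 UMI in later neurons. *Isl2* had too few UMIs to be compared at E11.5 (38 in later and 5 in nascent neurons), although its ratio was 83.7 times (32.9–272). A call of *Isl2* in the E12.5 library only is therefore not read as a difference between the stages. Of 7 at E12.5, *Isl2* was higher and *Eya2*, at 0.239 times (0.203–0.280), lower, where 10.7% of 8827 genes were higher and 7.71% lower. *Pou4f1* was at 0.611 times (0.478–0.770) and 0.655 times (0.606–0.706) its nascent level and *Drgx* at 1.75 and 1.39 times, while *Isl1* (1.08 and 1.09) and *Tlx3* (0.997 and 0.901) moved little.

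A finer split of the index into 9 ranges showed where within the progenitor range the first genes came up. *Prdm12* had 29.7% of its highest range level at an index under 0.05 at E11.5, 40.4% from 0.05 to 0.1 and 82.0% from 0.1 to 0.2. That highest range, from 0.8 to 0.9, held 13 *Prdm12* UMIs in 25 cells (44.5 CPM, 23.7–76.2), so these percents are imprecise. *Eya2* had 6.93%, 10.2% and 16.9% in the same ranges, *Pou4f1* 1.70%, 2.63% and 9.33%, and *Tlx3* 2.24% in the third. In CPM *Eya2* was above *Prdm12*, at 37.5 against 13.3 under 0.05 at E11.5. At E12.5 *Prdm12* had 24.7%, 28.7% and 51.6%, *Eya2* 10.1%, 14.4% and 32.4%, and *Pou4f1* 1.82%, 3.04% and 10.4%. *Prdm12* was thus nearest to its highest level while the glial genes still dominated, although its course between 0.2 and 0.5 at E12.5 (84.0% and then 41.1%) was uneven.

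**Figure D2:**
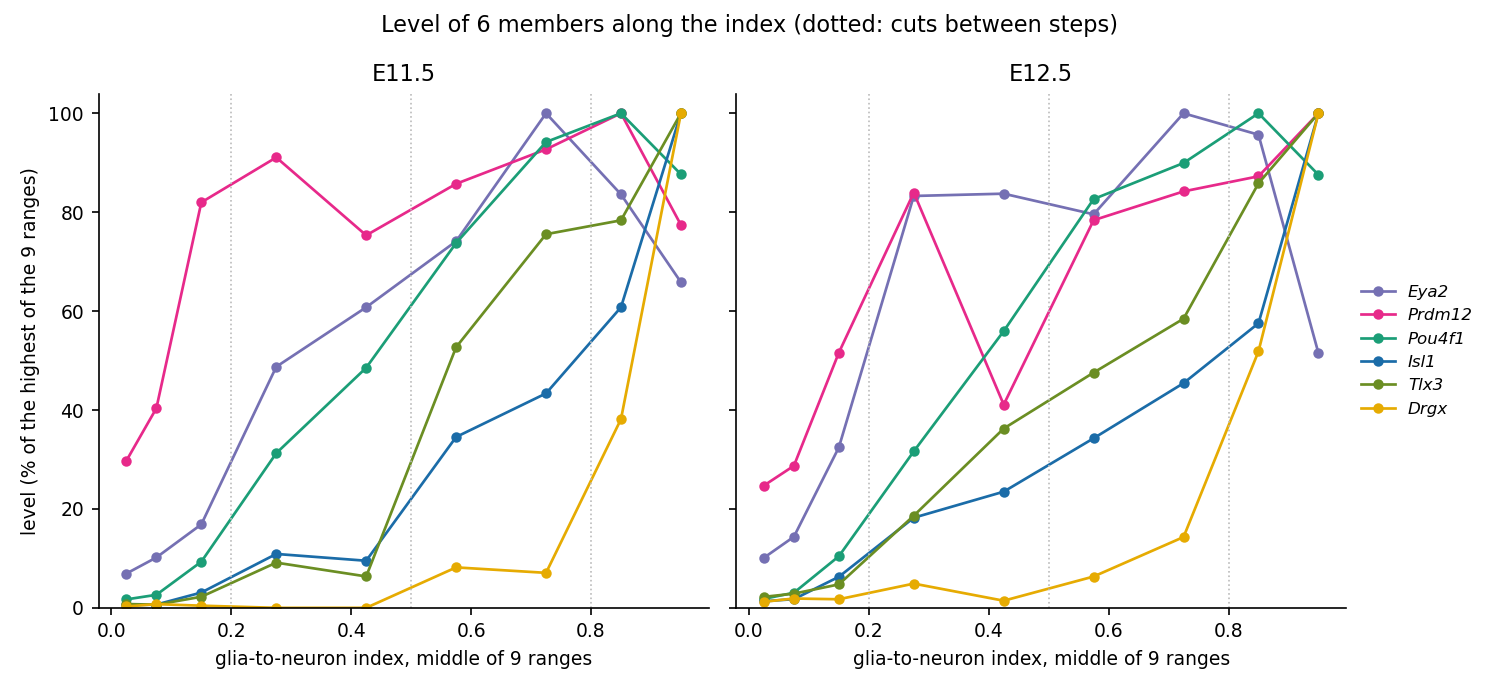
Level of 6 of the genes, as percent of each gene's highest value among 9 ranges of the glia-to-neuron index (0 glial, 1 neuronal), for E11.5 and E12.5, with dotted lines at the index values 0.2, 0.5 and 0.8 that separate the steps. *Prdm12* is at 29.7% and 24.7% in the lowest range, *Pou4f1* at 1.70% and 1.82%, and *Drgx* stays at or under 14.3% up to an index of 0.8.

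To compare shares of cells, each cell was thinned to 4000 UMIs, which left out 114 and 514 shallower lineage cells. *Eya2* was then found in 15.9% of progenitor-range cells at E11.5 and 21.6% in the E12.5 library, against 0 of 54 cells outside the lineage (up to 5.56%) and 5.63%. *Pou4f1* was found in 8.54% and 7.87% against 1.85% and 1.41% outside, and *Prdm12* in 6.83% and 6.48% against 0 in both. *Isl1*, at 5.37% and 8.39% against 1.85% and 5.16%, was close to the background at E12.5. In late transition *Pou4f1* was in 88.0% and 90.3% of cells, *Isl1* in 88.0% and 73.8%, *Eya2* in 80.0% and 87.4%, *Tlx3* in 76.0% and 56.3%, *Prdm12* in 16.0% and 21.4% and *Drgx* in 1 of 25 cells and 11.7%. In nascent neurons *Drgx* reached 43.0% and 52.3%, and *Isl2* 1.34% and 3.78%. *Isl2* then reached 46.2% and 28.6% in middle and 60.0% and 53.2% in later neurons. *Prdm12* never passed 21.4% in any step. Whether the other cells lacked it or held it without a captured transcript was not tested.

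Classes by *Sox10* and *Neurog1* in the same thinned cells gave a view that does not rest on the index alone. Among progenitor-range cells with *Sox10* and no *Neurog1* (248 and 861 cells), *Eya2* was found in 15.3% at E11.5 and 19.9% in the E12.5 library, *Pou4f1* in 6.05% and 5.34%, *Prdm12* in 5.65% and 5.23% and *Tlx3* in 1.21% and 4.99%. Among progenitor-range cells with both (29 and 56 cells), *Eya2* was found in 34.5% (17.9–54.3) and 46.4% (33.0–60.3), *Pou4f1* in 20.7% and 19.6%, *Prdm12* in 17.2% and 23.2%, and *Tlx3* in 0 of 29 and 10.7%. *Eya2*, *Pou4f1* and *Prdm12* were thus found in a larger share of the double-positive cells, before the neuronal genes of the index dominated. At E11.5 these shares rest on 29 double-positive cells, and the differences were not tested. *Isl1* is not reported here for the progenitor-range classes. Transition cells with both landmarks (15 and 13 cells) had *Pou4f1* in 80.0% and 69.2%, *Eya2* in 53.3% and 92.3%, *Isl1* in 46.7% and 61.5% and *Tlx3* in 26.7% and 46.2%. Cells with *Neurog1* alone (107 and 343) had *Pou4f1* in 91.6% and 82.5%, *Isl1* in 89.7% and 79.3%, *Tlx3* in 81.3% and 72.6% and *Drgx* in 31.8% and 37.3%. In neuron-range cells with neither landmark (89 and 854), *Drgx* stood at 59.6% and 61.01% and *Isl2* at 20.2% and 19.6%, while *Eya2* was down at 64.0% and 62.1%.

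**Figure D3:**
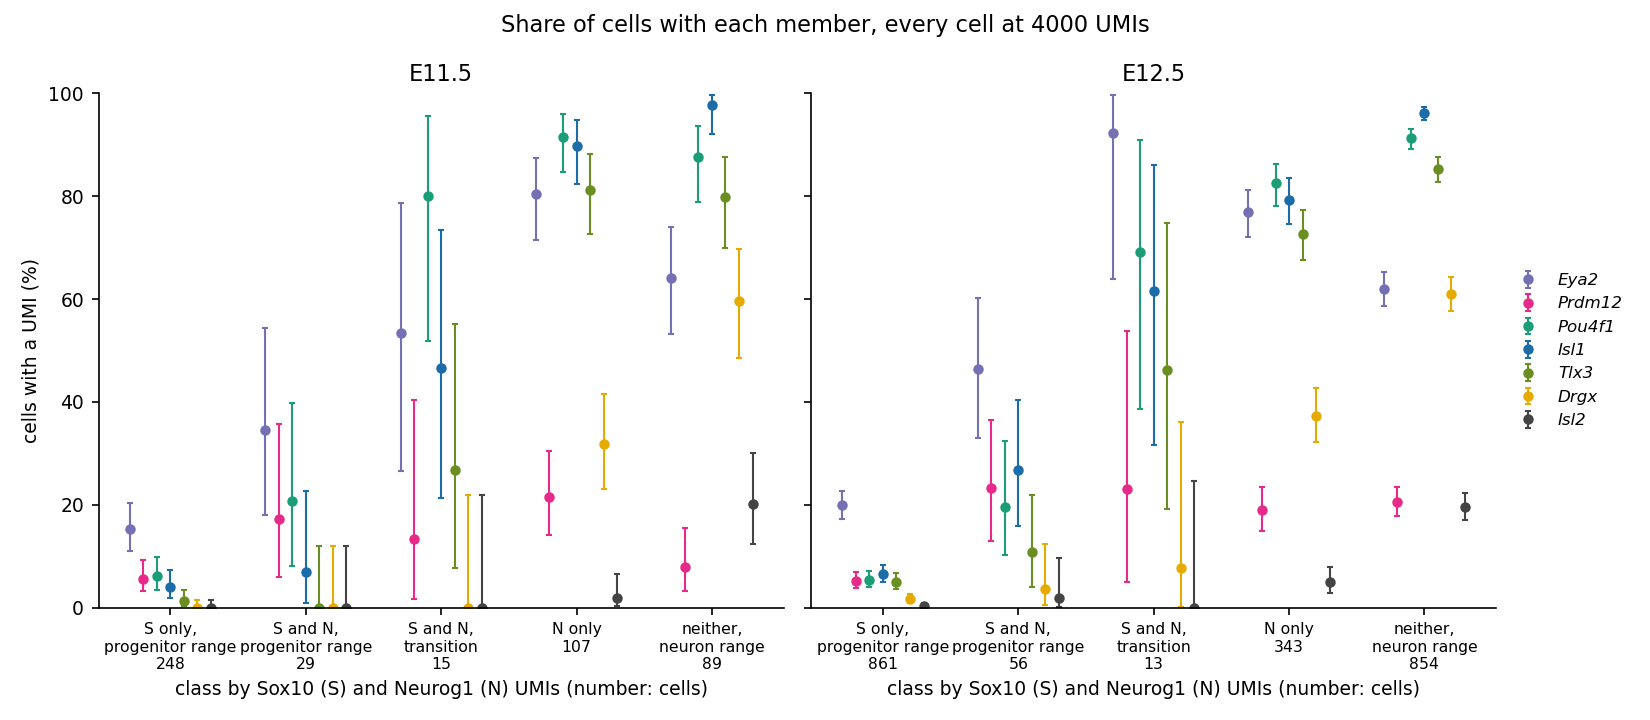
Share of cells (%) with a UMI of each of 7 genes after thinning to 4000 UMIs, by the presence of *Sox10* (S) and *Neurog1* (N) UMIs, with 95% Clopper-Pearson intervals and the number of cells under each class. From cells with *Sox10* alone to cells with both landmarks in the progenitor range, *Eya2* goes from 15.3% to 34.5% at E11.5 and from 19.9% to 46.4% in the E12.5 library, while *Isl2* is seen mostly in neurons with neither landmark.

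Progenitor-range cells that held one of the early genes also held more of the others. *Neurog1* stood at 60.7 CPM in cells with an *Eya2* UMI and 13.1 CPM in cells without at E11.5 (4.64 times, 3.31–6.60), and at 44.5 and 9.20 CPM in the E12.5 library (4.84 times, 3.61–6.55). It stood at 76.5 against 20.4 CPM with and without *Prdm12* at E11.5 (3.75 times, 2.75–5.08) and at 64.3 against 15.8 CPM in the E12.5 library (4.08 times, 3.04–5.44). *Sox10* was much the same with and without *Eya2*, at 1.07 times (0.976–1.18) and 0.934 times (0.867–1.01). Around *Pou4f1*, *Isl1* was 5.86 times (3.71–9.31) higher in cells with a UMI at E11.5 and 3.21 times (2.41–4.23) in the E12.5 library, *Eya2* 3.14 and 2.69 times, and *Prdm12* 2.75 and 2.86 times. Cells with a UMI were also further along the index (median 0.0530 against 0.0451 for *Eya2* at E11.5, 0.0316 against 0.0231 at E12.5) and deeper (13375 against 11068 UMIs, and 6671 against 5617). Their median doublet scores were 0.0484 against 0.0401 and 0.0393 against 0.0360. The part of these measures in the ratios was not tested. The 35 progenitor-range cells with *Tlx3* at E11.5 were shallow instead, with a median of 3283 UMIs against 12264.

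At the glial end, under an index of 0.05 (253 and 1219 cells), the link to *Neurog1* was still seen. Cells with a *Neurog1* UMI (29 and 76) held *Prdm12* at 46.5 CPM against 8.79 at E11.5 (5.29 times, 2.67–10.3) and at 45.1 against 11.3 in the E12.5 library (3.99 times, 2.50–6.19). *Eya2* was 2.27 times (1.42–3.52) and 2.18 times (1.67–2.80) higher in them, and *Pou4f1* 3.24 times (1.55–6.40) and 2.26 times (1.31–3.73). *Isl1* was at 1.49 times (0.371–4.46) and 1.34 times (0.711–2.33), with intervals that include 1. Split by *Isl1* instead, cells with an *Isl1* UMI held *Neurog1* at 34.3 against 13.4 CPM at E11.5 (2.55 times, 1.09–5.37). In the E12.5 library that ratio was 1.43 (0.798–2.42). Cells with *Neurog1* at the glial end were thus enriched for *Prdm12*, *Eya2* and *Pou4f1*. For *Isl1* the 2 splits gave different answers at E11.5, so its link to *Neurog1* is left unsettled.

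Combinations were counted over 6 genes (*Eya2*, *Prdm12*, *Pou4f1*, *Isl1*, *Tlx3* and *Drgx*) in thinned cells. None of the 6 was found in 70.2% of progenitor-range cells at E11.5 and 61.0% in the E12.5 library, and 2 or more in 7.80% (5.40–10.8) and 9.86% (8.33–11.6). Outside the lineage, 0 of 54 cells and 1.88% of cells had 2 or more. The share with 2 or more rose to 51.6% (33.1–69.8) and 81.0% (70.9–88.7) in early transition and 96.0% and 96.1% in late transition. The share with 4 or more was 56.0% (34.9–75.6) and 43.7% (33.9–53.8) in late transition and 81.6% (75.3–86.9) and 76.8% (74.2–79.2) over the neuron range. Most cells therefore went from none or 1 of the genes to several within the transition, where the index ranges hold few cells.

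**Figure D4:**
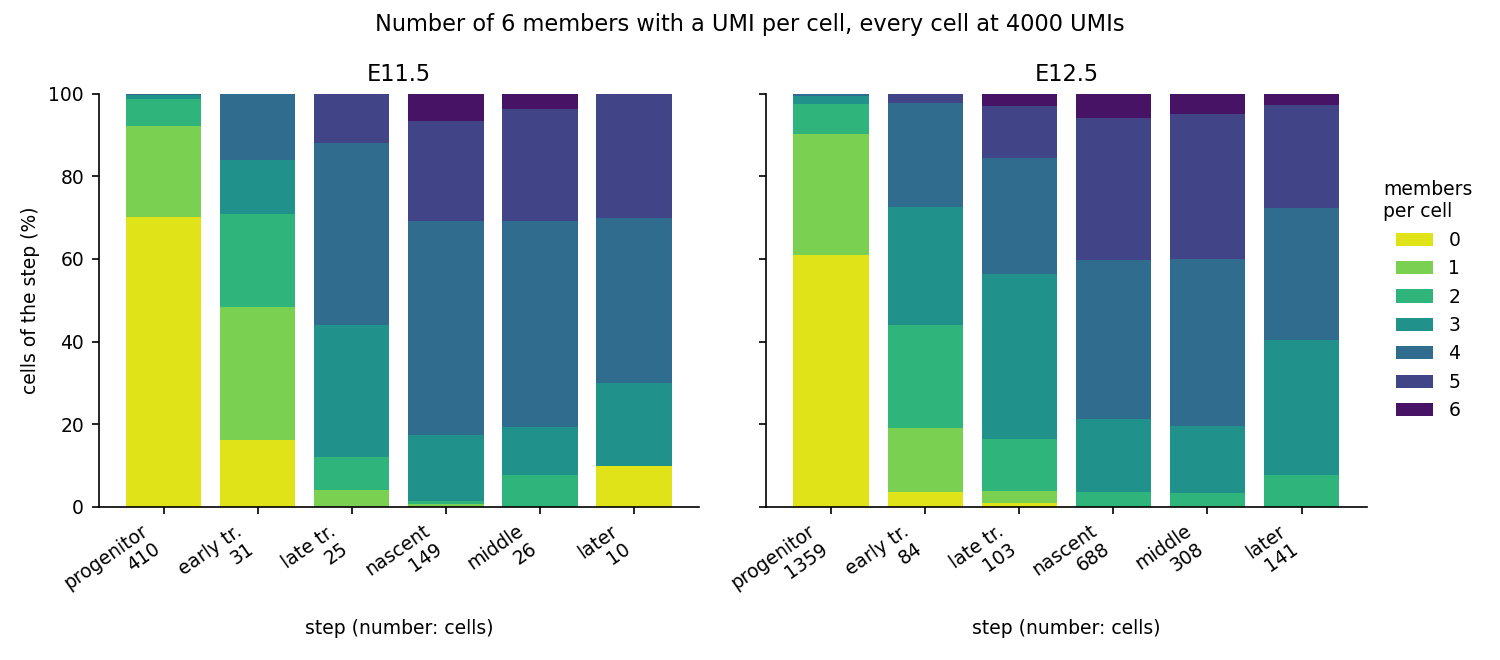
Stacked share of cells (%) of each step by the number of the 6 genes with a UMI, every cell at 4000 UMIs, with the number of cells under each bar. Cells with none make up 70.2% and 61.0% of the progenitor range, and cells with 4 or more 56.0% and 43.7% of late transition.

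The commonest combinations grew from the progenitor range to nascent neurons, though not in 1 fixed sequence. In the progenitor range the commonest after none was *Eya2* alone, in 48 of 410 E11.5 cells (11.7%) and 191 of 1359 E12.5 cells (14.1%). In early transition it was *Pou4f1* alone at E11.5, in 7 of 31 cells (22.6%), and *Eya2*, *Pou4f1*, *Isl1* and *Tlx3* together at E12.5, in 17 of 84 (20.2%). That set of 4 led late transition at E11.5, in 10 of 25 cells, while *Eya2*, *Pou4f1* and *Isl1* led at E12.5, in 22 of 103 (21.4%). Among nascent neurons the set of 4 led at E11.5, in 56 of 149 cells (37.6%), and the same set with *Drgx* led at E12.5, in 173 of 688 (25.1%). In later neurons *Eya2* had dropped out of the leading set, which was *Pou4f1*, *Isl1*, *Tlx3* and *Drgx*, at E11.5 in 3 of 10 cells and at E12.5 in 30 of 141 (21.3%). Detection depends on each gene's level as well as on its presence, so a missing gene in 1 cell is not evidence of absence.

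Pairs in early transition, here without thinning (41 and 101 cells), were lopsided. Both *Eya2* and *Isl1* were found in 20 and 61 cells, *Eya2* without *Isl1* in 12 and 25, and *Isl1* without *Eya2* in 0 and 5. *Pou4f1* without *Tlx3* was found in 19 and 34 cells and *Tlx3* without *Pou4f1* in 0 and 7. *Tlx3* without *Drgx* was found in 9 and 41 cells, and *Drgx* without *Tlx3* in 0 and 1. *Isl1* and *Tlx3* were less lopsided at E12.5, with *Isl1* alone in 31 cells and *Tlx3* alone in 9. *Eya2* and *Pou4f1* were mostly found together, in 24 and 65 cells, with *Eya2* alone in 8 and 21 and *Pou4f1* alone in 4 and 6. Outside this last pair, the gene found more often without the other also had the higher level in this step. At E11.5 *Drgx* had no UMI in this step, so it could not be found without *Tlx3*. The part of the levels in these counts was not tested.

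In the neuron range most cells with *Isl2* also held *Isl1* and *Drgx*, as did most neurons. *Isl2* without *Isl1* was found in 0 of 195 E11.5 and 7 of 1283 E12.5 cells, beside 35 and 322 with both. *Isl2* without *Drgx* was found in 1 and 40 cells, beside 34 and 289 with both. Among all neuron-range cells, *Isl1* was found in 97.4% and 96.0% and *Drgx* in 71.8% and 70.0%. *Drgx* was in 83.7% of middle and 81.9% of later E12.5 neurons, the steps with most *Isl2*. The overlap is therefore not read as a relation between the genes. Nearly all neurons held *Pou4f1* or *Isl1*. At E11.5, 5 of 195 had neither, and these 5 were the only neuron-range cells with 2 or more spinal cord neuron markers, holding 60 of the 60 such UMIs, at a median of 3199 UMIs against 11901. Without these cells, which go against the sensory label, both genes were found in 190 of 190 cells (100%, 98.1–100). At E12.5, 4 of 1283 had neither, at a median of 1775 UMIs, and none of them had 2 spinal cord markers. Of other neuron types, motor neuron markers had 3 and 8 UMIs in the neuron range. Autonomic markers had 3 and 186, of which 176 at E12.5 were *Th*, with *Dbh* at 4, *Phox2a* at 1 and *Hand2* at 0.

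Within neurons, *Isl2* marked cells that differed in the other genes. In E12.5 nascent neurons with *Isl2* (52, against 722 without), *Isl1* was 1.44 times (1.31–1.57) and *Drgx* 1.43 times (1.16–1.75) higher. *Pou4f1* was lower, at 0.723 times (0.626–0.831), and so was *Eya2*, at 0.590 times (0.476–0.723). In middle neurons (142 and 190) the ratios were smaller, at 1.12 for *Isl1*, 1.22 for *Drgx* and 0.837 for *Pou4f1*. In later neurons (135 and 42), *Eya2* was at 0.568 times (0.397–0.827), *Pou4f1* at 0.788 times (0.662–0.943) and *Ntrk3*, the receptor of the proprioceptor lineage, at 0.388 times (0.254–0.604). *Eya2* and *Pou4f1* fell and *Drgx* rose from nascent to later neurons as well, and nascent cells with *Isl2* were deeper (6680 against 5711 UMIs). The part of either in these ratios was not tested. At E11.5 only 35 neurons held *Isl2*. In them *Ntrk3* was 8.70 times (6.21–12.4) higher than in the other 160, at 238 against 27.4 CPM, and *Eya2* was at 0.276 times (0.211–0.356). These E11.5 ratios cover the whole neuron range, unlike the E12.5 ratios by step, and are not comparable with them. At E11.5 *Isl2* was in 3.21% of nascent, 75.0% of middle and 81.8% of later neurons. *Ntrk3* was 21.1 times (13.9–32.5) higher in later than in nascent neurons there. The part of maturity in the E11.5 ratios was not tested.

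**Figure D5:**
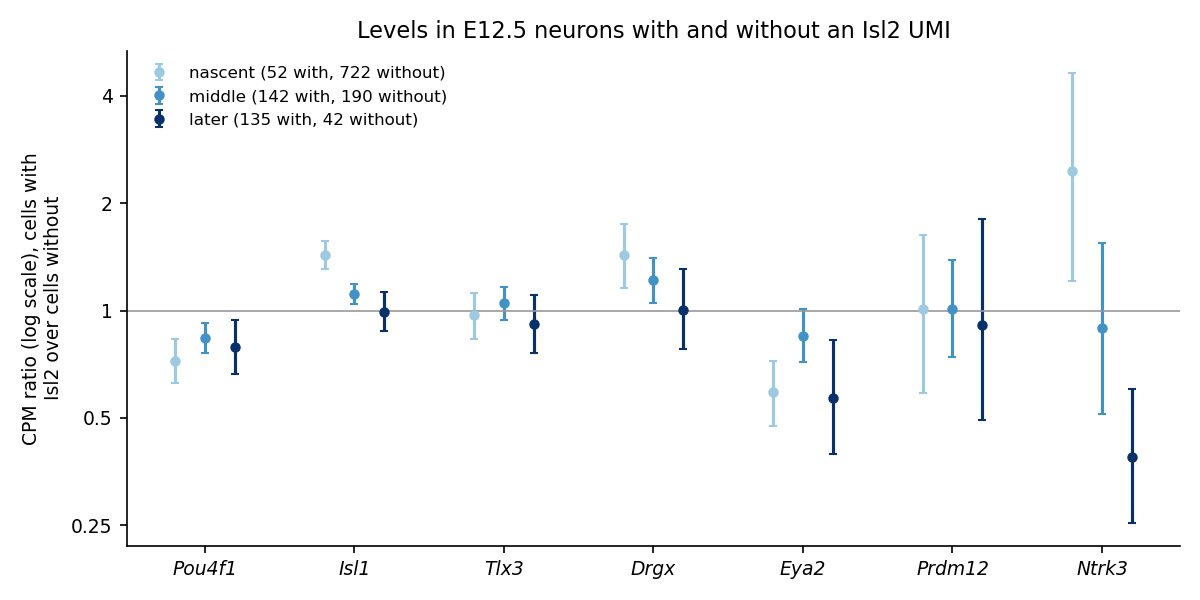
Ratio (log scale) of the CPM in E12.5 neurons with an *Isl2* UMI to that in neurons without, for 6 of the genes and the receptor gene *Ntrk3*, with 95% intervals, in nascent, middle and later neurons. *Pou4f1* is under 1 in all 3 steps (0.723, 0.837 and 0.788), and *Ntrk3* is at 0.388 in later neurons.

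*Prdm12* was found in neurons with less *Ntrk3*. Neuron-range cells with a *Prdm12* UMI had *Ntrk3* at 28.6 CPM against 101 CPM in those without at E11.5 (0.284 times, 0.175–0.442, 63 and 132 cells) and at 12.4 against 34.0 CPM in the E12.5 library (0.364 times, 0.248–0.522, 386 and 897 cells). Among later neurons at E12.5 (60 and 117 cells), *Ntrk3* was at 16.7 CPM with *Prdm12* and 102 CPM without (0.164 times, 0.0762–0.316), and *Runx3*, a proprioceptor factor, was at 0.378 times (0.1504–0.837). *Neurog1* differed in direction between the libraries, at 1.82 times (1.55–2.15) at E11.5 and 0.722 times (0.595–0.873) in the E12.5 library. The intervals count UMIs and not cells, and a few cells rich in *Ntrk3* can carry such a ratio. The ratios over the neuron range also pool nascent, middle and later cells. From nascent to later neurons *Ntrk3* rose 21.1 times (13.9–32.5) at E11.5 and 4.36 times (3.19–5.98) in the E12.5 library. *Prdm12* was at 0.151 and 0.957 times over the same steps. The part of maturity in the pooled ratios was not tested.

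The rare POU genes were compared in later E12.5 neurons only. The 16 later neurons with *Pou4f3* at E12.5 had *Ntrk3* at 412 CPM against 16.1 CPM in the other 161 (25.5 times, 15.7–43.5), though only 5 of the 16 held *Ntrk3*. *Runx3* was 3.97 times (1.95–7.84) higher in them. Of the 5 later neurons with *Pou4f2*, 3 held *Runx3*, of which all 177 later neurons held 40 UMIs. These 5 cells are too few to read a link from. The overlap of the rare POU genes with *Prdm12* or *Isl2* is not reported here.

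The other genes of the pathway came from 3 lists. Of the 10 genes of neurogenesis, 9 of 9 with enough UMIs at E11.5 and 8 of 8 in the E12.5 library rose 2-fold from the progenitor range to transition, and none fell. *Neurod1*, a downstream bHLH factor, went from 5.86 to 404 CPM at E11.5 and from 12.6 to 410 CPM in the E12.5 library, and *Hes6* from 56.8 to 1144 and from 49.0 to 1332 CPM. Most genes of this list also define the nascent step, so it was not compared between nascent and later neurons. Of 10 cofactors, 4 of 8 rose and 1 fell at E11.5, and 3 of 10 rose and 3 fell in the E12.5 library. Over all genes compared in this step, 3.70% and 4.85% rose and 12.9% and 18.6% fell. The falls among the cofactors were near that share and are not read as a result about the list. *Lmo4*, a LIM-only factor that competes for the partners of Islet proteins, fell from 305 to 125 CPM and from 170 to 55.4 CPM. *Dach1*, a partner of Eya proteins, came later, at 345 CPM in neurons against 58.3 in transition at E11.5 and 368 against 22.6 CPM in the E12.5 library. Of 10 subtype genes, 3 of 3 at E11.5 and 5 of 5 in the E12.5 library rose from transition to the neuron range, among them *Ntrk3* and *Shox2*. So did 4 of the 7 well-counted genes in each library (*Tlx3*, *Isl1*, *Drgx* and *Isl2*). *Eya2*, *Prdm12* and *Pou4f1* did not rise 2-fold there.

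Across the 6 steps of both libraries (12 points that share cells' depth and libraries, among 5862 genes, given with no test), *Isl1* and *Tlx3* were the most alike of the genes (Pearson r of log2 levels 0.990). *Pou4f1* had 0.931 with *Tlx3* and 0.929 with *Isl1*, *Eya2* had 0.725 with *Prdm12* and −0.44 with *Isl2*. Outside the set, the genes most like *Pou4f1* were *Srrm4* (0.990), *Ppp1r14a* (0.988) and *Tmsb4x* (0.983). Those most like *Isl1* were *Tlx2* (0.989), *Synpo* and *Aplp1* (both 0.986), and like *Tlx3* they were *Ppp1r17* (0.985), *Gabarapl2* (0.985) and *Ebf2* (0.983). *Drgx* was closest to *Kcnmb2* (0.997), *Ebf1* (0.991) and *Ccser2* (0.988), and *Isl2* to *Stmn4* (0.995), *Fry* (0.985) and *Klc1* (0.980). *Eya2* had *Coro1c* (0.967), *Nin* and *Setbp1* (both 0.952), and *Prdm12*, with the least typical course, *Mrps5* (0.903), an unnamed gene (ENSMUSG00000117901, 0.890) and *5730522E02Rik* (0.883).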

How the data were processed

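Reads were counted by the authors with Cell Ranger on mm39 (version 7.0, per the submitters' processing notes). The deposited values are raw UMI counts per gene and barcode, with no normalization. Whether intronic reads were counted is not given in the sources used here. The *Prss56-Cre* library was not analysed here.

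The filters of the study's methods were applied to each library: at most 10% mitochondrial UMIs, at least 2000 UMIs at E11.5 and 1000 in the E12.5 library, and a Scrublet doublet score under 0.2 (as implemented in scanpy 1.11.5). Cells with under 5 UMIs of the glial and neuronal index genes were not placed. A cell lay outside the lineage if it held 50% or more of the markers of another type and a larger share of those than of the index lists. Each list sum was scaled by its 95th percentile before the index was taken as neuronal over neuronal plus glial, with cuts at 0.2, 0.5 and 0.8, and at 1/3 and 2/3 for the nascent-to-later index. Of the lineage cells, 77 and 186 lay within 0.05 of a cut of the first index and 23 and 221 of the second. Levels are summed UMIs per 1000000 (CPM), shares count cells with at least 1 UMI after 1 random thinning to 4000 UMIs, and a count of 0 allows what 3 counts would give. Genes with at least 50 UMIs in the 2 sets of cells were called past a 2-fold ratio. Likeness used log2(CPM + 10) over genes with at least 200 UMIs per library. *Drgx* was matched by identifier to the row *Prrxl1*. Named genes are the 9 genes, *Sox10*, *Neurog1*, genes of 3 context lists and the 3 genes most like each well-counted gene, and the rest, such as *Ntrk3* beside *Isl2* and *Prdm12*, are from those lists, of which some genes are not reported here. The computation of the ratio was checked on simulated Poisson counts for transition against progenitor. Intervals held the true value for 96.1% of 9151 genes at E11.5 and 96.0% of 11043 in the E12.5 library. The intervals assume the same Poisson counts, so this cannot show how they hold where cells vary more than that. Gene positions are from GENCODE M39 on GRCm39, and promoters from RefSeq on GRCm38.p6. Python 3.11.15, numpy 2.4.6, scipy 1.17.1, pandas 2.3.3, anndata 0.12.19 and matplotlib 3.10.9 were used. The genes and lists were chosen with earlier results of these data known.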

Additional observations from a re-analysis of the deposited data

How the results depend on the processing

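A change of direction was looked for only in later over nascent, with the neuron range in 3 equal parts, where 0 of 13 values reversed. The *Eya2* transition percent at E11.5 was 101 (88.5–115), level with neurons, in the main setting. It was under the neuron level with the other cuts (62.2, 53.8–71.6) and with every second axis gene (64.7, 56.0–74.4). Of the transition levels as percent of the neuron level, 93 of 126 recomputed values moved by less than their interval and 33 by more, and of the levels by step 618 of 672. The cause of the moves below was not tested. With index cuts at 0.15, 0.4 and 0.7 the percent was 62.2 for *Eya2*, 36.5 for *Pou4f1*, 12.8 for *Isl1* and 14.2 for *Tlx3* at E11.5, and 130.4, 56.3, 24.2, 30.1 and, for *Drgx*, 3.64 in the E12.5 library. With every second axis gene *Eya2*, *Pou4f1*, *Isl1* and *Tlx3* had 64.7, 42.1, 15.0 and 19.6 at E11.5 and 137, 59.5, 26.4 and 31.9 in the E12.5 library. With the cells outside the lineage kept they had 85.5, 54.7, 20.3 and 28.7, and 136, 64.5, 28.6 and 36.4. Without the doublet filter *Drgx* had 10.6 at E11.5 and 16.4 in the E12.5 library, and *Eya2* 137, *Isl1* 36.6 and *Isl2* 11.9 at E12.5. With cells ordered by the first principal component *Isl1* had 30.1 at E12.5 and *Isl2* 0 at E11.5, which was also 0 with at least 4000 UMIs per cell. The intervals of *Tlx3* and *Isl1*, apart with the cuts used, overlapped with the other cuts (11.3–17.6 and 10.9–15.0 at E11.5, 26.1–34.4 and 21.8–26.8 in the E12.5 library) and with every second axis gene (16.1–23.5 and 12.9–17.3, 28.0–36.3 and 24.0–29.1). The order of the genes was kept, except that *Drgx* and *Isl2* traded places with every second axis gene at E11.5 and with the other cuts in the E12.5 library, and *Prdm12* and *Pou4f1* with the principal component and with at least 4000 UMIs at E12.5.

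With the neuron range in 3 equal parts, later over nascent was 0.319 and 0.301 for *Eya2*, 4.29 and 1.80 for *Drgx* and, at E12.5, 50.9 for *Isl2*, which had 0 UMIs in the nascent part at E11.5 and gave no value. Shares depend on depth: 162 of 672 moved. With thinning to 2000 UMIs, 2 or more genes were found in 22.0% and 48.5% of early transition cells and in 2.99% of the progenitor range at E12.5, and 4 or more in 25.0% and 23.9% of late transition and 36.4% and 39.7% of neurons. Without thinning, the progenitor range had 25.0% and 15.6%, late transition 85.7% and 68.1% and neurons 94.9% and 89.2%. When 2 UMIs were asked for, the values were 0.488% and 0.883% in the progenitor range, 19.4% and 40.5% in early transition, 12% and 12.6% in late transition and 33.0% and 26.7% in neurons. With at least 200 UMIs per gene, fewer genes were compared. At E11.5, 142 were higher and 402 lower in transition, 231 and 102 in neurons and 90 and 128 in later neurons, where 1 of the 9 genes was lower. At E12.5 the counts were 273 and 1024, 803 and 270, and 321 and 302. Leaving out the 5 cells with spinal cord markers, an alternative chosen after seeing the data, moved no value past its interval. No paired analysis was possible because each stage has 1 library, so neither biological nor technical spread between libraries is known, and the later step at E11.5 rests on 11 cells.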
